A study of Mus musculus with 28 samples.

Results

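A set of 9 genes that encode RNA-binding regulators of mammalian germ cells were followed through the testis mRNA libraries of a study on the domains of PRDM9, a zinc finger protein that marks chromatin where meiotic recombination will begin. The genes were Dazl, Boll, Ybx2, Cpeb1, Ythdc2, Meioc, Adad1, Adad2 and Rbm46. They were chosen by name from the deposited gene table, 9 of its 34839 genes, with earlier results of these data known.

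The mRNA was measured in whole testis of C57BL/6 mice. There were 2 libraries from Prdm9 KO (Prdm9-/-) mice, 2 from Hop2 KO (Hop2-/-) mice and 1 from adult wild-type mice. HOP2, encoded by a gene listed as Psmc3ip in the table, helps the recombinase DMC1 to pair homologous DNA. Single-stranded DNA at meiotic breaks was sequenced (SSDS) in 1 further testis library, from C57BL/6 mice whose Prdm9 (K/K) allele encodes a protein without its KRAB domain. The labels state no age for the knockouts, and neither the deleted exons nor the number of mice behind a library is given in the sources used here. The labels do not say whether the 2 libraries of a knockout came from separate mice, so p-values reflect only how far such libraries spread, and that spread may be technical.

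The mRNA values are in what the authors called TPM, a length-corrected share of transcripts, but their columns sum to 825459 to 953598 in the knockout libraries and to 1622660 in the wild-type library, and are called rescaled TPM here. Such values keep no read depth, which is unknown. Psmc3ip was 22.8 and 26.4 in the Prdm9 KO libraries, 3.51 and 5.06 in the Hop2 KO libraries, and 197 in the wild-type library, so it was lowest in the libraries labelled Hop2 KO. Prdm9 was 4.73 and 5.93 in the Prdm9 KO libraries, 10.7 and 15.0 in the Hop2 KO libraries, and 6.20 in the wild-type library, which checks the Prdm9 label only weakly.

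Male germ cells make many mRNAs before the proteins are needed, since transcription stops while the spermatid nucleus is compacted. RNA-binding proteins store these mRNAs, set the length of their poly(A) tails and recruit ribosomes to them. An earlier set of RNA-binding proteins helps spermatogonia to leave the mitotic programme and enter meiosis. DAZL and BOLL belong to the DAZ family of translational activators. YBX2 (MSY2) is the Y-box protein that packages stored mRNA in germ cells, and CPEB1 binds the cytoplasmic polyadenylation element. YTHDC2, an RNA helicase with a YTH domain, works with MEIOC and RBM46 at entry into meiosis. ADAD1 and ADAD2 are double-stranded RNA-binding proteins with a domain resembling that of adenosine deaminases, and both are needed for the formation of sperm in mice.

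The bases upstream of 4 annotated starts are shown because the break map bears on them. Rbm46 had the break peak with the most fragments among the 7 genes in the set of annotated starts used here. Dazl was the most abundant of the 9 in the knockouts and also lay under a peak. Ybx2 differed most from wild type, and Adad2 was the gene of these 7 that had no peak near its start. The sequences are from RefSeq (GRCm38.p6), run 5′ to 3′ on the gene's strand and end at the base before the start, except that Ybx2 ends where its annotated gene begins. The last 29 bases of Rbm46 and 3 of Adad2 lie inside the annotated gene range. Capitals mark matches, on either strand, to the motifs that were searched. These are the E-box (CACGTG), an E2F6-type motif (TCCCGC), the motif described for STRA8 and MEIOSIN (CNCCTCAG), the cyclic AMP response element (TGACGTCA), the GC box (GGGCGG), the NRF1 motif, a MYB-type motif (TAACNG), the TATA box (TATAAA) and the CCAAT box (CCAAT).
Rbm46, chr3:82876484-82876733, minus strand: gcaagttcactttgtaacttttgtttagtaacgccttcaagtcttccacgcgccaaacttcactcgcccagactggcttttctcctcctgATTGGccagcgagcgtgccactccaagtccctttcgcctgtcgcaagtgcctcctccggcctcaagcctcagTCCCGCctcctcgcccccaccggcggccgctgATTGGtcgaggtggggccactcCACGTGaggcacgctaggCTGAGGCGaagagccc
Dazl, chr17:50293621-50293870, minus strand: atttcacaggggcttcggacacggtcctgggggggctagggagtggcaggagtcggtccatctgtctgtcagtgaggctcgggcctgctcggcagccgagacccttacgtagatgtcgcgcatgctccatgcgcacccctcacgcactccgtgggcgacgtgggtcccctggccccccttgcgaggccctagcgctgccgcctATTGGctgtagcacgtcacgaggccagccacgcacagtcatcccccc
Ybx2, chr11:69935649-69935804, plus strand: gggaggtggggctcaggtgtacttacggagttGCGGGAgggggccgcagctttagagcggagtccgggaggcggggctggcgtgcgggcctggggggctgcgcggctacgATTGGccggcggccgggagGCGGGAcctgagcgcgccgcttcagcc
Adad2, chr8:119612463-119612712, plus strand: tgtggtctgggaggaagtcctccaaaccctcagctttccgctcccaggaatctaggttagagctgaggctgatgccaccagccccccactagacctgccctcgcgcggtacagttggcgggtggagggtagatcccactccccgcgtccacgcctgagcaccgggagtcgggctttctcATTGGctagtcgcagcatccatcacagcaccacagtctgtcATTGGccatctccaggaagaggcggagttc
In Rbm46 the capitals mark, from left to right, a CCAAT box, the E2F6-type motif, a second CCAAT box, the E-box and the STRA8 and MEIOSIN motif. In Dazl and Adad2 they mark CCAAT boxes only, 1 and 2 of them. In Ybx2 they mark an E2F6-type motif, a CCAAT box and a second E2F6-type motif.

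Knockout testes were set against wild type to describe these genes in arrested tissue. The 9 genes went in different directions. Dazl and Cpeb1 were higher in both knockouts, Ybx2, Adad1, Adad2 and Boll were lower, and Meioc, Rbm46 and Ythdc2 did not pass the test. So 2 of 9 rose and 4 of 9 fell in Prdm9 KO (limma, Benjamini-Hochberg adjusted p under 0.05), where 34.6% of 16261 tested genes rose and 39.4% fell. In Hop2 KO the counts were again 2 and 4, where 35% of 16261 genes rose and 39.5% fell. In either direction 6 of 9 passed in each knockout, against 74.1% of all genes in Prdm9 KO and 74.5% in Hop2 KO. Both counts are close to the share of all genes, so the number of calls says nothing particular about the 9 genes. Of all called genes 46.8% were higher in Prdm9 KO and 47.0% in Hop2 KO, but with columns rescaled to 1000000 these shares were 66.0% and 64.0%, and the 9 genes kept 2 higher and 4 lower calls. Their median log2 change was -0.82 in Prdm9 KO and -1.16 in Hop2 KO, against -0.08 and -0.06 over all tested genes. Both comparisons use the same wild-type library, which is assumed to vary like the knockouts. In bulk testis, fewer cells of a type and less RNA per cell cannot be told apart.

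**Figure D1:**
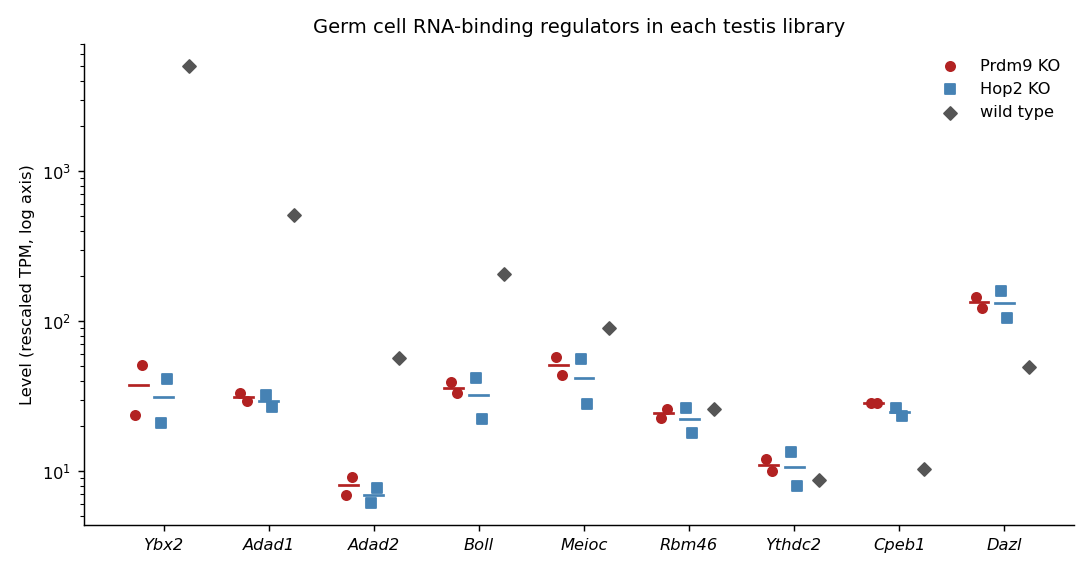
Level of each gene in every testis mRNA library, in rescaled TPM on a log axis; each point is 1 library and short lines are the means of 2 knockout libraries. Wild type lies above every knockout library for Ybx2, Adad1, Adad2, Boll and Meioc, from 5039 for Ybx2 to 57.1 for Adad2, and below every knockout library for Cpeb1 (10.4) and Dazl (49.8).

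The 2 DAZ family genes moved in opposite directions. Dazl (ENSMUSG00000010592, chr17:50279393-50293620), needed from the earliest germ cells onwards, was 146 and 123 in the Prdm9 KO libraries, 160 and 105 in the Hop2 KO libraries, and 49.8 in the wild-type library. All 4 knockout libraries lay above wild type, and the 2 knockouts overlapped. The log2 change of Dazl was 1.41 in Prdm9 KO (SE 0.31, limma adjusted p = 0.0206) and 1.36 in Hop2 KO (SE 0.31, adjusted p = 0.0223). Both calls were lost without Prdm9 KO replicate 1 (adjusted p = 0.0845 in Prdm9 KO and 0.0547 in Hop2 KO), without Prdm9 KO replicate 2 (0.0610 and 0.0546) and with no filter on low values (0.0504 and 0.0537). Boll (ENSMUSG00000025977, chr1:55243566-55363789), which mouse spermatids need, was 39.1 and 33.0 in the Prdm9 KO libraries, 41.8 and 22.4 in the Hop2 KO libraries, and 206 in the wild-type library. Every knockout library was far below wild type. The log2 change of Boll was -2.49 in Prdm9 KO (SE 0.42, adjusted p = 0.0102) and -2.71 in Hop2 KO (SE 0.42, adjusted p = 0.00800), and the Prdm9 KO call was lost without Prdm9 KO replicate 2 (0.0515). Dazl stood above Boll in all 4 knockout libraries, and below it in wild type.

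The storage protein gene Ybx2 (ENSMUSG00000018554, chr11:69935805-69941604) had the largest change of the 9. It was 23.8 and 51.0 in the Prdm9 KO libraries, 20.9 and 41.2 in the Hop2 KO libraries, and 5039 in the wild-type library, where it exceeded 99.97% of all genes in the table. The wild-type value was 135 times the Prdm9 KO mean and 162 times the Hop2 KO mean. The log2 change was -7.13 in Prdm9 KO (SE 0.66, limma adjusted p = 0.00213) and -7.37 in Hop2 KO (SE 0.66, adjusted p = 0.00191). Ybx2 was also the most variable of the 9 among the knockouts, since replicate 2 was 2.14 times replicate 1 in Prdm9 KO and 1.97 times replicate 1 in Hop2 KO. Cpeb1 (ENSMUSG00000025586, chr7:81347026-81458001), whose loss stops mouse germ cells in meiotic prophase, varied least. It was 28.4 and 28.3 in the Prdm9 KO libraries, 26.4 and 23.5 in the Hop2 KO libraries, and 10.4 in the wild-type library, so its groups did not overlap. The log2 change of Cpeb1 was 1.37 in Prdm9 KO (SE 0.13, adjusted p = 0.00227) and 1.19 in Hop2 KO (SE 0.13, adjusted p = 0.00315).

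Both adenosine deaminase domain genes were lower in the knockouts. Adad1 (ENSMUSG00000027719, chr3:37063656-37111512) was 33.2 and 29.6 in the Prdm9 KO libraries, 32.1 and 26.6 in the Hop2 KO libraries, and 512 in the wild-type library. The knockout libraries lay within a narrow band far below wild type. Its log2 change was -3.99 in Prdm9 KO (SE 0.17, limma adjusted p = 0.000305) and -4.09 in Hop2 KO (SE 0.17, adjusted p = 0.000283), the smallest adjusted p of the 9 genes in each comparison. Adad2 (ENSMUSG00000024266, chr8:119612710-119616926) was 6.89 and 9.19 in the Prdm9 KO libraries, 6.13 and 7.74 in the Hop2 KO libraries, and 57.1 in the wild-type library. It was the lowest of the 9 genes in every knockout library and the fifth highest in wild type. Its log2 change was -2.70 in Prdm9 KO (SE 0.25, adjusted p = 0.00223) and -2.88 in Hop2 KO (SE 0.25, adjusted p = 0.00185).

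The 3 genes that act together at entry into meiosis did not pass against wild type. Meioc (ENSMUSG00000051455, chr11:102665351-102682240), the coiled-coil partner of YTHDC2, was 57.7 and 43.6 in the Prdm9 KO libraries, 55.7 and 27.9 in the Hop2 KO libraries, and 89.6 in the wild-type library. All knockout libraries were below wild type as deposited, but they were spread from 27.9 to 57.7. The log2 change of Meioc was -0.82 in Prdm9 KO (SE 0.49, 95% interval -2.24 to 0.59, limma adjusted p = 0.2022) and -1.16 in Hop2 KO (SE 0.49, interval -2.58 to 0.25, adjusted p = 0.103). The Prdm9 KO value turned to 0.10 with columns rescaled to 1000000. Without Hop2 KO replicate 1 the Hop2 KO value was -1.65 (adjusted p = 0.0296), with the remaining Hop2 KO library assumed to vary like the others.

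Rbm46 (ENSMUSG00000033882, chr3:82836521-82876512) was 22.7 and 26.1 in the Prdm9 KO libraries, 26.3 and 18.1 in the Hop2 KO libraries, and 26.1 in the wild-type library. Wild type lay inside the range of the knockouts. The log2 change of Rbm46 was -0.10 in Prdm9 KO (interval -0.89 to 0.69, limma adjusted p = 0.766) and -0.25 in Hop2 KO (interval -1.04 to 0.54, adjusted p = 0.458), and both turned positive with rescaled columns (0.80 and 0.53). Ythdc2 (ENSMUSG00000034653, chr18:44827730-44889720) was 12.05 and 9.96 in the Prdm9 KO libraries, 13.4 and 7.995 in the Hop2 KO libraries, and 8.67 in the wild-type library, which again lay inside the knockout range. Its log2 change was 0.31 in Prdm9 KO (interval -0.73 to 1.35, adjusted p = 0.479) and 0.24 in Hop2 KO (interval -0.80 to 1.28, adjusted p = 0.582). With columns rescaled to 1000000 these values were 1.13 (adjusted p = 0.0570) and 0.95 (0.0885), and with quantile normalization 0.79 (0.0851) and 0.74 (0.101). The intervals reach past a doubling for Ythdc2 in both comparisons, so a p above the threshold does not show that these levels were the same.

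The make-up of the tissue differed alongside these genes, and its part in the results was not tested. All 10 spermatid markers fell in both knockouts, and their summed level was 0.00977% to 0.0372% of wild type, with Prm2 listed at 0 in Hop2 KO replicate 1. All 8 pachytene markers fell, to a sum of 1.81% to 2.08% of wild type, although the call of Mybl1 was lost under all 3 other scalings. Of 10 early meiotic prophase markers, 2 rose and 4 fell in Prdm9 KO and 2 rose and 5 fell in Hop2 KO, with a sum of 33.7% to 37.8% of wild type. Their direction depended on the scaling, since 5 rose and 4 fell in each knockout with rescaled columns and with quantile normalization. Their median log2 change was -0.45 in Prdm9 KO and -0.68 in Hop2 KO as deposited, against 0.46 and 0.11 with rescaled columns. Of 8 spermatogonial markers, 6 rose in Prdm9 KO, and 6 rose and 1 fell in Hop2 KO (Gfra1, not called with rescaled columns or quantile normalization), with a sum of 326% to 393% of wild type. Sertoli markers (7 of 8 higher in both knockouts, sum 392% to 616% of wild type), Leydig markers (6 of 7, 442% to 1245%) and macrophage markers (7 of 7, 522% to 916%) rose as well. Most of the Leydig sum was Insl3 (80.9% to 93.1% in each library), the 1 Leydig marker that did not pass, and without it the sum was 548% to 664% of wild type. Of 5 peritubular myoid markers, 1 rose in Prdm9 KO and 3 rose in Hop2 KO, with a sum of 185% to 428% of wild type. In Prdm9 KO 3 rose under each of the 3 other scalings, and in Hop2 KO 5 rose with rescaled columns, 4 with quantile normalization and 3 with median-ratio scaling. No marker of these lists other than Prm2 was at 0 in any library. Of the 9 genes, 6 changed in libraries that also differed in spermatogonial, pachytene, spermatid and somatic markers.

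**Figure D2:**
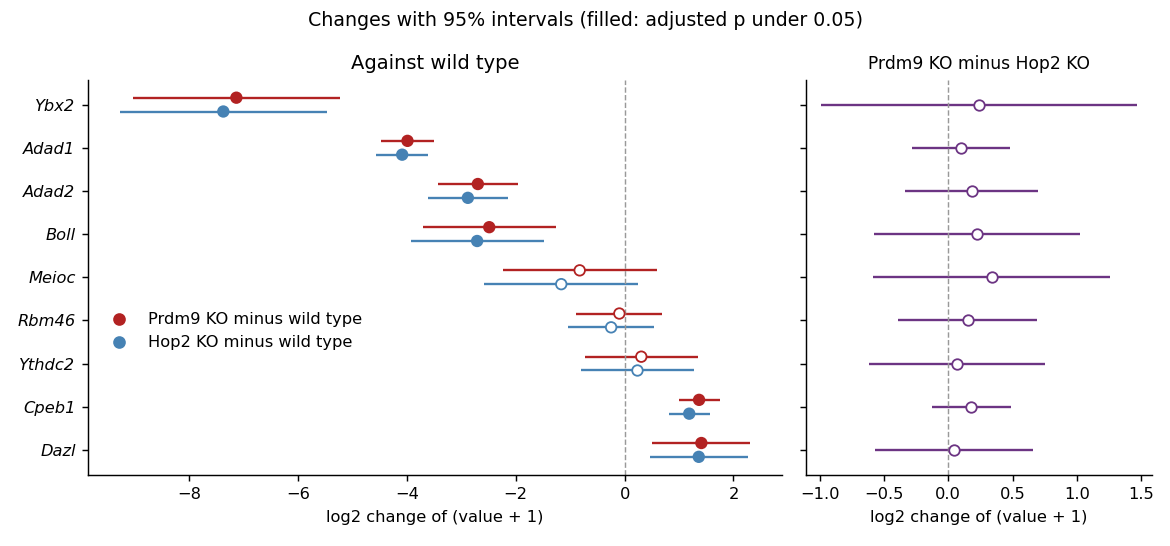
Log2 change of each gene with its 95% interval from limma, on the scale of log2(rescaled TPM + 1); the left panel sets each knockout against wild type and the right panel sets Prdm9 KO against Hop2 KO, with filled circles for an adjusted p under 0.05. Against wild type the values run from -7.37 for Ybx2 to 1.41 for Dazl, and every interval between the knockouts spans 0.

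Prdm9 KO and Hop2 KO testes, both with spermatocytes that stop in meiotic prophase, were compared directly in a fit of the 4 knockout libraries. None of the 9 genes passed (0 of 9), where 0.0139% of 14358 tested genes did and 3.1% had an unadjusted p under 0.05. None of the 9 had an unadjusted p under 0.05 in this fit. Without Hop2 KO replicate 1, Boll and Meioc did, with limma adjusted p = 0.635 for Boll and 0.619 for Meioc. All 9 log2 changes were positive, from 0.05 for Dazl to 0.34 for Meioc (limma adjusted p between 0.972 and 0.994), with a median of 0.18 against -0.03 over all genes. Leaving out Hop2 KO replicate 2 turned the sign of 6 of them.

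The intervals show what differences these libraries leave possible. The log2 change of Cpeb1 between the knockouts was 0.18 (95% interval -0.13 to 0.49), so a Prdm9 KO level up to 1.40 times that of Hop2 KO lies inside it. That of Adad1 was 0.10 (-0.28 to 0.48) and that of Adad2 0.18 (-0.33 to 0.70). For Dazl the interval was -0.57 to 0.66, for Rbm46 -0.39 to 0.69 and for Ythdc2 -0.62 to 0.76. Boll (-0.58 to 1.03), Meioc (-0.58 to 1.26) and Ybx2 (-0.99 to 1.47) had the widest intervals, which include a doubling. Cpeb1 was also the 1 gene of the 9 whose libraries did not overlap between Prdm9 KO and Hop2 KO, which held for 32.9% of all tested genes. The authors' deposited table lists a q of 1 for each of the 9 genes, but it does not name the groups it compared.

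The spread between replicate libraries followed a few patterns. Hop2 KO replicate 2 had the lowest value of the 4 knockout libraries for 7 of 9, all except Ybx2 and Adad2. Over all tested genes that library was lowest for 25.8%. A group of 6 genes, namely Dazl, Boll, Cpeb1, Ythdc2, Meioc and Adad1, were higher in replicate 1 of both knockouts, which held for 40.3% of all tested genes. Ybx2 and Adad2 were higher in replicate 2 of both knockouts, which held for 30.2%. The genes that fell most thus did not share one pattern among the knockout libraries: Boll and Adad1 went with Dazl, and Adad2 went with Ybx2.

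The order of the 9 genes by level also differed between the tissues. Their summed level was 370 and 354 in the Prdm9 KO libraries, 383 and 280 in the Hop2 KO libraries, and 5999 in the wild-type library. Dazl ranked first in each knockout library, with 34.8% to 41.8% of the sum, and sixth in wild type, with 0.830%. Meioc came next to Dazl in replicate 1 of both knockouts, and after Dazl and Ybx2 in replicate 2 of both. Ybx2 took 6.45% and 14.4% of the sum in the Prdm9 KO libraries, 5.47% and 14.7% in the Hop2 KO libraries, and 84.0% in the wild-type library, where Adad1 followed with 8.54%. In the knockout libraries the neighbours Adad1, Boll, Ybx2, Cpeb1 and Rbm46 lay between 18.1 and 51.0. Their ranges overlapped pair by pair, except that Adad1 (26.6 to 33.2) stayed above Rbm46 (18.1 to 26.3). Adad2 ranked last in each knockout library and Ythdc2 last in wild type.

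The transcript table shows which annotated transcripts carry these values. It lists 38 transcripts for the 9 genes, and 23 of them reached 10% of their gene in at least 1 library. The values are estimates that divide reads between transcripts sharing exons, and with 1 wild-type library the shares are a description without a test. For 7 of the 9 genes the leading transcript was the same in all 5 libraries, and Dazl and Adad2 have 1 transcript each.

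In Boll, Rbm46, Ybx2, Meioc and Cpeb1, but not in Adad1 or Ythdc2, the wild-type share of the leading transcript lay outside the range of the 4 knockout libraries. How often this holds over all genes was not counted, and a single library can lie outside such a range without a real difference. For Meioc the wild-type share of 61.0% was near the 58.9% of Prdm9 KO replicate 1. The leading Boll transcript, ENSMUST00000114423, held 53.7% and 53.3% of the gene in the Prdm9 KO libraries, 51.7% and 53.6% in the Hop2 KO libraries, and 67.1% in the wild-type library. A minor Boll transcript, ENSMUST00000159398, held 17.7% and 17.9% in the Prdm9 KO libraries, 18.4% and 17.9% in the Hop2 KO libraries, and 7.40% in the wild-type library. The 4 knockout libraries lay close together for both transcripts, and wild type stood apart from them. Rbm46, whose total level did not pass the test, showed the same kind of difference. Its leading transcript ENSMUST00000048647 held 68.6% and 69.3% in the Prdm9 KO libraries, 66.8% and 69.4% in the Hop2 KO libraries, and 78.1% in the wild-type library, and most of the rest was ENSMUST00000182818, with 30.4% to 32.8% in the knockouts and 21.8% in wild type.

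The leading Ybx2 transcript ENSMUST00000018698 held 49.6% and 57.8% in the Prdm9 KO libraries, 58.0% and 63.0% in the Hop2 KO libraries, and 67.3% in the wild-type library. ENSMUST00000147773 of Adad1 held 2.30% and 2.05% in the Prdm9 KO libraries, 1.99% and 4.56% in the Hop2 KO libraries, and 10.9% in the wild-type library, so the fall of that transcript was the steepest of the 5 listed for Adad1. The leading transcripts of Adad1 and Meioc changed between libraries. For Meioc it was ENSMUST00000155813 in all libraries but Hop2 KO replicate 2, where ENSMUST00000100378 held 55.7%. ENSMUST00000155813 held 58.9% and 52.2% in the Prdm9 KO libraries, 54.7% and 44.2% in the Hop2 KO libraries, and 61.0% in the wild-type library. Ythdc2 came mostly from ENSMUST00000037763, with 88.3% and 95.4% in the Prdm9 KO libraries, 86.3% and 74.5% in the Hop2 KO libraries, and 84.6% in the wild-type library. Cpeb1 was spread over 5 transcripts that each passed 10%. The leading one, ENSMUST00000130310, held 27.3% and 29.0% in the Prdm9 KO libraries, 27.6% and 35.4% in the Hop2 KO libraries, and 23.0% in the wild-type library.

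**Figure D3:**
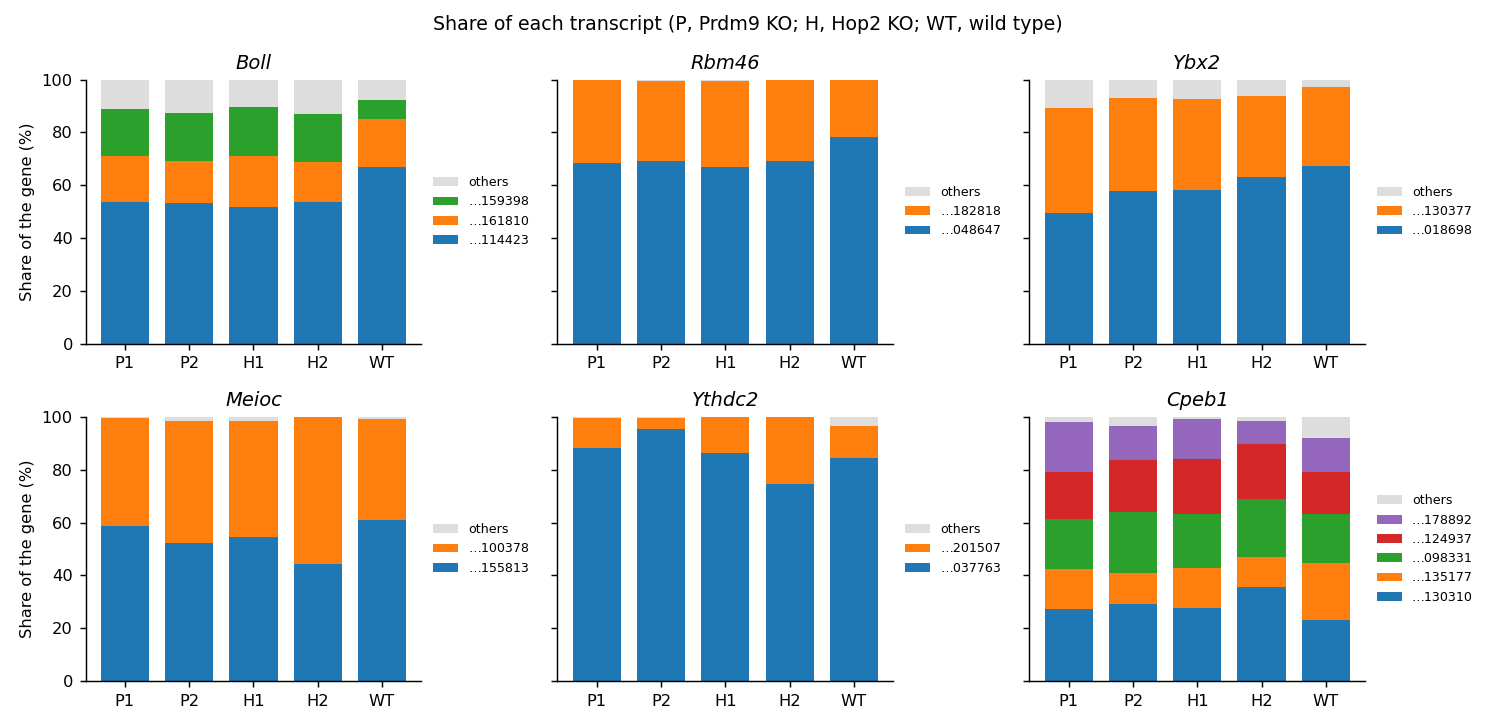
Share of each gene's summed level, in percent, held by its transcripts in each library; bars are single libraries, colours are transcripts that reached 10% in at least 1 library (last 6 digits of the Ensembl identifier) and grey is the rest. The leading transcript of Boll holds 51.7% to 53.7% in the 4 knockout bars and 67.1% in the wild-type bar, and that of Rbm46 66.8% to 69.4% and 78.1%.

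The genes whose pattern over the 5 mRNA libraries was most like that of each of the 9 were looked up among 14088 genes. Likeness is the root mean square difference of the 2 log2 profiles, each centred on its own mean, and says nothing of shared function. Ybx2 was closest to Fabp9 (0.134), Adam2 (0.144) and Catsperg1 (0.221), all known from late spermatocytes, spermatids or sperm. Fabp9 shared both the fall and the higher value in replicate 2, with 9.90 and 23.9 in the Prdm9 KO libraries, 7.14 and 18.9 in the Hop2 KO libraries, and 2338 in the wild-type library. Cpeb1 was closest to Rel (0.0215), Cbx2 (0.0282) and Dnmt3b (0.0311). Dnmt3b, a DNA methyltransferase, was 11.96 and 12.1 in the Prdm9 KO libraries, 11.8 and 9.79 in the Hop2 KO libraries, and 4.18 in the wild-type library.

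The other genes had close neighbours of varied kinds. Dazl was closest to Lgalsl (0.0329), Abcc4 and Epm2aip1, Boll to Ptar1 (0.0895), Asb1 and Ip6k1, and Adad1 to Ift140 (0.0523), Ube2j1 and Enthd1. Adad2 was closest to Inpp5e (0.0294), Vps13a and Pou2f2, Meioc to Sdk2 (0.0614), Tnpo1 and Efr3a, Rbm46 to Ranbp2 (0.0455), Rnft2 and Scml4, and Ythdc2 to Camk1d (0.0216), Cggbp1 and Trpc1. Among the 9 genes themselves the closest pairs were Dazl with Cpeb1 (0.176), Ythdc2 with Rbm46 (0.236), Meioc with Rbm46 (0.414) and Boll with Adad2 (0.422). For Ythdc2 and Rbm46, whose wild-type value lay inside the knockout range, likeness is in the spread among the knockout libraries.

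Relatives of the 9 proteins mostly fell as deposited, but not with rescaled columns. For this list and the next ones, 39.4% of all tested genes fell and 34.6% rose in Prdm9 KO. In Hop2 KO these shares were 39.5% and 35%. Of 14 tested family relatives, 9 fell and 3 (Ythdf1, Adar and Dnd1) rose in each knockout, with a median log2 change of -0.92 in Prdm9 KO and -1.16 in Hop2 KO. With columns rescaled to 1000000 the counts were 4 lower and 4 higher in Prdm9 KO and 5 lower and 4 higher in Hop2 KO. The medians were then -0.06 in Prdm9 KO and -0.39 in Hop2 KO. Ybx1 and Ybx3, the other Y-box genes, fell in both knockouts, with log2 changes of -2.66 and -5.48 in Prdm9 KO and of -2.56 and -5.42 in Hop2 KO. Ybx3 was 55.8 and 53.7 in the Prdm9 KO libraries, 57.3 and 57.5 in the Hop2 KO libraries, and 2496 in the wild-type library. The Cpeb1 relatives Cpeb2 (-5.08 in Prdm9 KO, -5.41 in Hop2 KO) and Cpeb3 (-3.97 and -4.15) fell, in the opposite direction to Cpeb1 itself. Cpeb2 was 12.4 and 11.8 in the Prdm9 KO libraries, 11.1 and 8.11 in the Hop2 KO libraries, and 443 in the wild-type library. The difference between Cpeb1 and its relatives was not tested as such.

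Of 12 tested partners and cofactors, 6 fell and 3 (Stra8, Papd4 and Parn) rose in each knockout, and the median was -0.47 in Prdm9 KO and -0.63 in Hop2 KO. That median turned positive with rescaled columns (0.45 and 0.17) and with quantile normalization (0.38 and 0.26), so the list has no direction that holds under every scaling. Stra8, which switches on the meiotic programme, rose by 1.99 in Prdm9 KO and 2.09 in Hop2 KO, with 60.7 and 55.1 in the Prdm9 KO libraries, 56.9 and 67.7 in the Hop2 KO libraries, and 13.8 in the wild-type library. Stra8 is also counted among the spermatogonial markers above. Pabpc1, a poly(A)-binding protein gene, fell (-2.87 in Prdm9 KO and -2.97 in Hop2 KO), as did Sympk, a scaffold of the polyadenylation machinery (-2.29 and -2.35). Cnot1, the scaffold of the CCR4-NOT deadenylase, fell (-1.52 and -1.67), but the Prdm9 KO call was lost with quantile normalization (-0.29, limma adjusted p = 0.0979). Meiosin was not analysed here.

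Of 13 mRNAs described in the literature as bound by these proteins, 9 fell and 2 (Tex19.1 and Ccna2) rose in each knockout. Their median log2 change was -9.73 in Prdm9 KO and -9.61 in Hop2 KO. With rescaled columns 4 rose in each knockout, while 8 fell in Prdm9 KO and 9 in Hop2 KO. Quantile normalization gave 4 higher and 9 lower in each. The largest changes of this list were in the protamine and transition protein genes, which YBX2 is known to bind and which package sperm DNA. Prm1 was 0.313 and 1.15 in the Prdm9 KO libraries, 0.0842 and 6.55 in the Hop2 KO libraries, and 27279 in the wild-type library, a log2 change of -13.99 and -13.22. Prm2 (-14.59 in Prdm9 KO and -13.48 in Hop2 KO), Tnp2 (-14.17 and -13.19) and Tnp1 (-13.01 and -12.28) also fell. These 4 genes and Smcp, also of this list, serve as spermatid markers above. Pgk2 of this list is also a pachytene marker, and Sycp1 and Sycp3 are also early meiotic prophase markers. Of 24 other tested germ line RNA-binding protein genes, 13 fell in Prdm9 KO against wild type, 14 fell in Hop2 KO, and 3 (Lin28a, Elavl2 and Tsn) rose in both. Their median of -0.63 for Prdm9 KO, with -0.76 for Hop2 KO, changed sign with rescaled columns (0.29 and 0.02) and, in Prdm9 KO, with quantile normalization (0.13). Nanos3 of this list is also a spermatogonial marker. Pabpc2, a testis poly(A)-binding protein gene, fell (-9.25 in Prdm9 KO and -9.19 in Hop2 KO). So did Tdrd6, a chromatoid body protein gene of spermatids (-8.41 and -8.23), Papolb, the testis poly(A) polymerase gene (-7.44 and -7.45), and Ddx25, a testis RNA helicase gene (-4.53 in both). Between Prdm9 KO and Hop2 KO no gene of the 4 lists was called (0 genes).

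The break map was read at annotated starts of these genes because in mice without PRDM9 meiotic breaks are known to form at promoters. It comes from 1 library of Prdm9 (K/K) testis, a genotype for which no mRNA was measured, and no control or wild-type SSDS library was analysed here. It holds 17731 peaks and 9397213 single-stranded fragments, of which 2652951 (28.2%) were distinct. The set of annotated starts used here held 7 of the 9 genes. Ythdc2 and Adad1 have annotated gene ranges but were not in that set, so the map was not read at them. A peak overlapped the start of 6 of these 7 (Dazl, Boll, Ybx2, Cpeb1, Meioc and Rbm46), and for Adad2 the nearest peak was 19876 bases away. The Cpeb1 start used (81454758) lies inside the annotated gene range. Its peak ends at 81455986, short of the outer end of that range at 81458001. A peak lay within 1000 bases of a start in 46% of 17492 protein-coding genes and in 72.4% of the 8408 with a mean of at least 5 in the knockout mRNA libraries. With 7 genes, the share of 85.7% is near that of expressed genes.

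Rbm46 stood out by the number of fragments in its peak. Its peak of 4074 bases held 373 distinct fragments and ranked 29 of 17731, where the median peak held 23. Within 1000 bases of the Rbm46 start lay 298 distinct fragments, more than at 99.96% of protein-coding starts. Dazl followed with 153 fragments in its peak (rank 554), Boll with 142 (rank 672) and Cpeb1 with 104 (rank 1438). Ybx2 had 75 (rank 2471) and Meioc 40 (rank 5265), both above the median peak. These counts were not corrected for width, and each peak named here was wider than the median of 1849 bases. Rbm46 was not the most abundant of these mRNAs in any mRNA library, and Dazl, the most abundant in the knockouts, had a smaller peak. No mRNA was measured in Prdm9 (K/K) testis, and a relation between mRNA level and peak size was not tested. Within 1000 bases of the Adad2 start lay 3 distinct fragments, against a median of 8 at protein-coding starts and 24 at those of expressed genes. Interval estimates from fragment counts would cover counting error only, and none are given for this single library.

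The position of the peaks relative to the starts differed. SSDS fragments lie on opposite strands on the 2 sides of a break, and the midpoint between the medians of the 2 strands marks the centre of a peak. The centre lay 73.8 bases downstream of the Rbm46 start and 25.9 bases downstream of the Dazl start. It lay 241.5 bases downstream of the Meioc start and 589.5 bases downstream of the Cpeb1 start. For Boll it fell between the 2 annotated starts, 743 bases downstream of the outer one and, at -282, upstream of the inner one. For Ybx2 the centre was upstream, at -622 bases from the outer start, and the strands were least separated there, with 64.4% of plus-strand fragments to the left of the centre and 60% of minus-strand fragments to the right. In Rbm46 these shares were 84.7% and 80.4%. No start of another gene lay inside any of the 6 peaks.

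**Figure D4:**
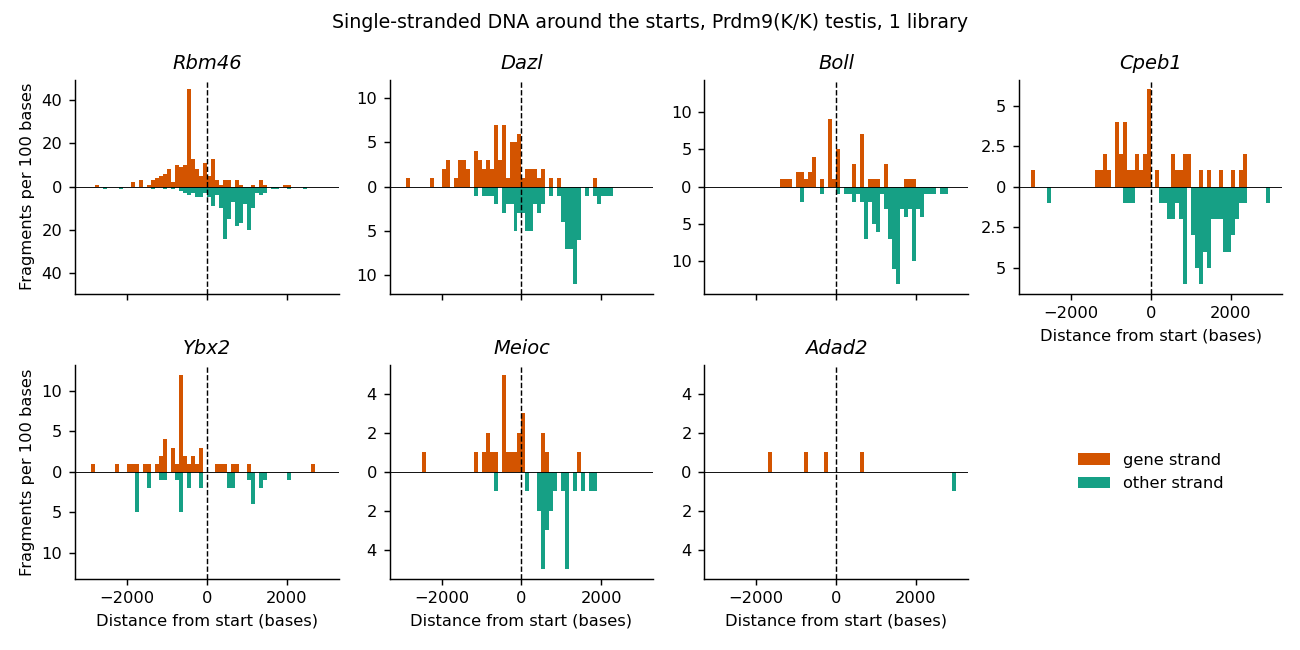
Distinct single-stranded DNA fragments per 100 bases around a start of each of the 7 genes in the set of starts used. They are from the 1 Prdm9 (K/K) testis library and reach up to 3000 bases either side. The gene's own strand is above 0 and the other strand below. The vertical scale differs between panels and a dashed line marks the start. Rbm46 has 298 fragments within 1000 bases of its start and Adad2 has 3.

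The windows upstream of these annotated starts had more CpG than the median annotated window, some of them only moderately. Those of Cpeb1, the inner Boll start and the inner Ybx2 start lie wholly inside the annotated gene range, and that of Meioc mostly does. Only the Dazl window lies wholly outside that range, so the values below also describe bases within genes. The 7 genes have 9 annotated start windows of 250 bases, and each had a higher GC content (59.2% to 79.2%) and a higher ratio of observed to expected CpG (0.504 to 1.02) than the median of 32851 annotated windows (52.4% and 0.374). The ratio was highest at the outer Ybx2 start (percentile 95.2) and lowest at the outer Boll start (percentile 59.8), with Adad2 next at 0.515 (percentile 60.5). No comparison was made with the windows of expressed genes alone. An E-box was in 2 of the 9 windows (Rbm46 and the outer Boll start) and in 6.02% of all windows. The E2F6-type motif was in 4 of 9 (Rbm46, Meioc and both Ybx2 starts) and in 16.9% of all windows. The motif described for STRA8 and MEIOSIN was in 2 of 9 (Rbm46, beginning 16 bases before the start, and the inner Ybx2 start) and in 6.42%. The Rbm46 window was the 1 of the 9 with all 3 of these motifs, which are printed in capitals above. A CCAAT box was in 6 of 9 windows and in 33.8% of all, and a GC box in 5 of 9 and in 32.7% of all. The MYB-type motif was in 1 window (Meioc) and in 19.8% of all, and the TATA box in 1 (Cpeb1) and in 12.4% of all. No window held the cyclic AMP response element (1.55% of all) or the NRF1 motif (3.74% of all). GC boxes can overlap each other, as they do at the inner Ybx2 start, and a match to these letters is a description and not a binding site. The shares of all windows were not matched for GC content, which was higher in these 9 windows. Boll and Ybx2 also count with 2 windows each, so the motif counts are not a test of enrichment.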

How the data were processed

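Whole-testis mRNA was analysed in 5 libraries and single-stranded DNA in 1. For 34839 genes and for transcripts the authors deposited an abundance signal that their file headers call TPM. The submitters' processing notes name CASAVA with kallisto and sleuth for mRNA, with builds GRCm38 and mm10, and MACS2 2.1.0.20150420 for the break map. No other version is given in the sources used here. Since the columns do not sum to 1000000, depth is unknown and no count model was run. P-values and q-values of a gene test by the authors were deposited as well, with its groups unnamed. The break map was deposited as peak intervals without a score and as fragment coordinates, which were counted here once per distinct position and strand.

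Values were tested on the scale log2(value + 1) with limma 3.58.1 (R 4.3.3, variance trend on). Genes entered a fit when their mean over its libraries reached 1. P-values were adjusted by Benjamini-Hochberg over all tested genes and called under 0.05. Changes on this scale understate those of low genes. Knockouts were set against wild type in a fit of all 5 libraries and against each other in a fit of the 4 knockout libraries. Gene coordinates, starts and upstream bases are RefSeq's on GRCm38.p6. Peaks are on mm10, the same assembly.

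Alternatives were pseudocounts of 0.1 and 5, no filter, a minimum mean of 5, 3 scalings, no trend, each knockout library left out in turn and, between knockouts, a replicate block and a fit of all 5 libraries. The 9 genes and all gene and marker lists were chosen with earlier results of these data known. Named genes are the 9, the 4 of each list with the largest mean absolute change against wild type, and the 3 genes most like each of the 9, without predicted genes, clones and pseudogenes. Genes named as exceptions to a count were chosen after their values were seen. No per-sample column was left unused (0 columns). The other libraries of the series were not used here.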

Additional observations from a re-analysis of the deposited data

How the results depend on the processing

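Against wild type, 98 of 108 alternative values of the 9 genes in Prdm9 KO and 99 of 108 in Hop2 KO kept their direction and their side of the threshold, and 2 higher and 4 lower calls were made under all 3 other scalings. Many of these values could not change direction. The filters, no trend and leaving out a library of the other knockout leave the log2 change as it was and alter only its p-value. Those scalings moved the median of all genes in Prdm9 KO to 0.77 (columns rescaled to 1000000), 0.58 (quantile normalization) and 0.18 (median-ratio scaling), and in Hop2 KO to 0.68, 0.59 and 0.19, and the share of higher calls, 46.8% in Prdm9 KO and 47.0% in Hop2 KO, to 66.0%, 61.8% and 52.7% in Prdm9 KO and to 64.0%, 61.5% and 52.9% in Hop2 KO. Meioc in Prdm9 KO turned to 0.10 with rescaled columns and to 0.015 with quantile normalization. Rbm46 turned to 0.80, 0.37 and 0.17 in Prdm9 KO and to 0.53, 0.20 and 0.00822 in Hop2 KO (rescaled, quantile, median-ratio); the cause was not tested. Leaving out 1 knockout library gave ranges of -0.19 to 0.00187 for Rbm46 in Prdm9 KO, -0.50 to 0.011 for Rbm46 in Hop2 KO and -0.10 to 0.58 for Ythdc2 in Hop2 KO.

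Between Prdm9 KO and Hop2 KO, leaving out 1 library gave ranges of -0.26 to 0.35 for Dazl, -0.21 to 0.66 for Boll, -0.29 to 0.77 for Ybx2, -0.27 to 0.41 for Ythdc2, -0.15 to 0.83 for Meioc, -0.035 to 0.23 for Adad1, -0.00123 to 0.37 for Adad2 and -0.11 to 0.41 for Rbm46; of the 9 genes only Cpeb1 kept its sign throughout. Leaving out Hop2 KO replicate 2 turned Dazl (-0.26), Boll (-0.21), Ythdc2 (-0.27), Meioc (-0.15), Adad1 (-0.035) and Rbm46 (-0.11). Over all genes 2 were called, 1 with a pseudocount of 5, 0 with no filter (980 at an unadjusted p under 0.05), 0 in the fit of all 5 libraries (647), and 3 to 11 with 1 library left out, 11 without Prdm9 KO replicate 2. With the replicate block 8 genes were called, 1536 had an unadjusted p under 0.05, and 0 of the 9 genes were called, although Ybx2 had an unadjusted p of 0.0499 (adjusted 0.462, limma). The labels do not say that the numbers pair libraries, and same-numbered libraries share only a number, although their deviations from the group means correlated at 0.41 over 14358 genes. With 25% in place of 10% of a gene as the limit, 15 transcripts were counted in place of 23. Windows of 250 and 5000 bases could not change the count of 6 starts under a peak. A peak overlaps each of them, and Adad2 lies 19876 bases from its nearest. The count also stayed 6 with peaks at or above the median number of distinct fragments, a limit chosen after seeing the data. With those stronger peaks the share was 30.9% of protein-coding genes and 51.6% of expressed ones, against 46% and 72.4% with all peaks. Ranking peaks by their own score was not run, as the peak intervals carry none.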
